A study of Mus musculus with 19 samples.

Results

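Stra8, Meioc and Ythdc2, genes that act at the switch of germ cells from mitosis to meiosis, were followed through the development of the mouse ovary. They are 3 of the 18194 genes that the array measured with a probe set annotated to a single gene, and were chosen by name. Each had 1 such probe set (1420568_at for Stra8, 1437678_at for Meioc, 1437357_at for Ythdc2). All 3 passed the filter on low signals, which left 12592 genes: a mean signal above 116.05, the median of all ovary values, in at least 1 stage. For Stra8 this mean was that of gd14 alone, and for Meioc those of gd14, gd16 and gd18.

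RNA came from whole ovaries of wild-type CD-1 mice, an outbred strain, with 3 arrays at each of 6 stages: gestation day (gd) 11, gd12, gd14, gd16, gd18 and postnatal day (pnd) 2. The animals carried no engineered allele and received no treatment named in the labels. A further array held RNA of whole newborns at pnd 0.5, pooled from 4 males and 4 females, with no replicate. By their labels, samples up to and including gd14 pooled 3 and later ones were not pooled; the series text instead has every sample as the pair of ovaries from 1 animal. Of the gd11 samples, 16 and 18 held gonad with mesonephros and 19 held gonad, and 18 and 19 came from the same dam. Germ cells are a part of the whole ovary, so in these samples more cells of a type and more RNA per cell cannot be told apart.

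In the fetal mouse ovary germ cells stop dividing by mitosis and enter meiotic prophase in a wave, while those of the fetal testis do not. STRA8 is a transcription factor induced in germ cells by retinoic acid, with a part for BMP signals, and with its partner MEIOSIN it switches on genes of meiotic prophase. MEIOC and YTHDC2 act on RNA rather than on DNA. YTHDC2 is an RNA helicase that can read N6-methyladenosine (m6A), and MEIOC binds it; the complex, which also holds RBM46, lowers mitotic transcripts such as that of cyclin A2, and mutants of either gene enter meiosis but fail to stay in it.

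The promoters of Stra8 and Meioc are shown because the signals of both genes rose most of the 3 at gd14. Both are RefSeq promoters of build GRCm38.p6 on the plus strand, written 5′ to 3′, with 250 bases before and 50 after the transcription start. Stra8 lies at chr6:34920698-34920997 and Meioc at chr11:102665335-102665634. Capitals mark in Stra8 the word AGGTCA, which retinoic acid receptors bind, and in Meioc the E2F-type motif GCGGGAA.
Stra8: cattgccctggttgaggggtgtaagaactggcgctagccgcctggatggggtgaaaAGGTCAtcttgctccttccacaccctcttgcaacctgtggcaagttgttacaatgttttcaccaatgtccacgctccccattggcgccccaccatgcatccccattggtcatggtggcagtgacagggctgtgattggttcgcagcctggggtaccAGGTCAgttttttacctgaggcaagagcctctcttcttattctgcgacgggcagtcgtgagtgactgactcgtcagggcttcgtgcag
Meioc: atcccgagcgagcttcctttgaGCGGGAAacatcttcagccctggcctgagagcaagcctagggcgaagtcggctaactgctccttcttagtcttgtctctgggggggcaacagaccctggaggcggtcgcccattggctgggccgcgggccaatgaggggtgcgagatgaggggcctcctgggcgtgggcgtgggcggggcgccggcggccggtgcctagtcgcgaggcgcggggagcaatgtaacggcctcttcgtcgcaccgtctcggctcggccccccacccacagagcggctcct
Searched on both strands were AGGTCA, the other receptor words spelled GGGTCA, the related receptor word AGTTCA, the E-box spelled CACGTG, and the E2F-type motif GCGGGAA. The Stra8 window held AGGTCA at positions -194 and -38 from the start and none of the others. The Meioc window held GCGGGAA at position -228 and none of the others. Over 32544 RefSeq promoters of this length, 16.2% held AGGTCA at least 1 time and 1.82% at least 2 times, and 4.63% held GCGGGAA. Of 30 promoters of 26 other genes of meiotic prophase, 5 held AGGTCA and 12 held GCGGGAA. These letters are a description and not evidence of binding.

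Signals are the deposited intensities, on a linear scale, with the trimmed mean of every array at 500. The ratio of 3′ to 5′ Gapdh signal, a sign of RNA length, ran from 2.987 to 3.28 at gd11, from 3.479 to 4.284 at gd12, from 4.092 to 4.963 at gd14, from 4.275 to 5.592 at gd16, from 4.85 to 5.204 at gd18 and from 5.068 to 5.408 at pnd2. It therefore moved with stage, and its part in the results was not tested. The summed signal of 13 germ cell markers ran from 2049 to 2919 at gd11, from 5381 to 16609 at gd12, from 44690.0 to 53632 at gd14, from 22177 to 27255 at gd16, from 33119 to 55356 at gd18 and from 33819 to 42244 at pnd2. No marker was listed at 0. Among the gd16 arrays, sample 7 stood apart in Xist, the RNA of the inactive X chromosome, with a signal of 44.8 against 11306 to 18576 on the other ovary arrays. The Y-linked genes Kdm5d, Uty and Eif2s3y had signals of 64.4, 29.4 and 40.2 on sample 7, against 40.3 to 58.5, 1.64 to 32.3 and 29.8 to 33.1 on the other gd16 arrays. The gd11 sample 16 stood apart in neuron markers, with a summed signal of 36897 for 10 genes, whereas the lowest of the gd11 arrays had 6451.

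Stra8, the transcriptional activator, was high at gd14 and at no other stage. Its signal was 2189, 3200 and 3583 on the gd14 arrays (samples 10, 11 and 12), in the 92.18 to 95.51 percentile range of those arrays. It had been 57.4, 26.4 and 11.5 at gd11 (samples 16, 18 and 19) and 10.8, 135 and 57.6 at gd12 (samples 13, 14 and 15). After gd14 it was 83.3, 21.6 and 105 at gd16 (samples 7, 8 and 9), 83.0, 73.0 and 13.1 at gd18 (samples 4, 5 and 6) and 34.8, 82.8 and 39.8 at pnd2 (samples 1, 2 and 3). Every gd14 array lay above each of the 15 other ovary arrays, and those 15 overlapped from stage to stage. The stage means ± SD (n = 3 arrays each) were 31.8 ± 23.4, 67.9 ± 62.9, 2990.4 ± 720.2, 70.1 ± 43.4, 56.4 ± 37.8 and 52.5 ± 26.4 from gd11 to pnd2. Ordered by mean, gd14 came first, and the next 5 (gd16, gd12, gd18, pnd2 and gd11) had overlapping arrays. The highest of the gd12 arrays, sample 14, was also the highest of that stage for Ddx4 and Dazl, with signals of 2982 and 4949, germ cell genes described below.

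Meioc, the partner of YTHDC2, was high at gd14 too, and was still above its early level on each array of gd16 and gd18. Its signal was 42.5, 5.38 and 20.0 at gd11 and 42.05, 190.45 and 25.3 at gd12. The gd14 arrays had 6957, 4555 and 5921, in the 96.62 to 97.92 percentile range. The gd16 arrays had 1616, 975 and 1397, the gd18 arrays 433, 793 and 911, and the pnd2 arrays 21.6, 26.4 and 98.4, in the same order of samples as for Stra8. No array of gd14, gd16 or gd18 overlapped with an array of another stage, so the 3 stages formed a stair downwards. The means ± SD were 22.6 ± 18.7, 85.9 ± 90.9, 5811 ± 1205, 1329 ± 326, 712 ± 248.7 and 48.8 ± 43.0 from gd11 to pnd2. At pnd2, gd11 and gd12 the arrays overlapped, and these 3 stages could not be put in an order.

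Ythdc2, the helicase, was measured well at every stage. Its signal was 1253, 668 and 839 at gd11, 832, 1053 and 848 at gd12, 1697, 1795 and 2138 at gd14, 1046, 1205 and 1771 at gd16, 1435, 2136 and 1622 at gd18, and 839, 767 and 1013 at pnd2. All 18 ovary arrays had it between the 79.54 and 92.22 percentiles. The gd14 and gd18 arrays lay above all arrays of gd11, gd12 and pnd2, and the gd16 arrays spanned both ranges. The means ± SD were 919.8 ± 301, 911 ± 123, 1876 ± 232, 1340.5 ± 381, 1731 ± 363 and 872.9 ± 127 from gd11 to pnd2. The highest gd11 array was sample 16, the one with high neuron markers. On the newborn array, with no test, the signal was 324 for Ythdc2, 32.5 for Stra8 and 1.47 for Meioc, and the sum of the germ cell markers was 886.

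**Figure D1:**
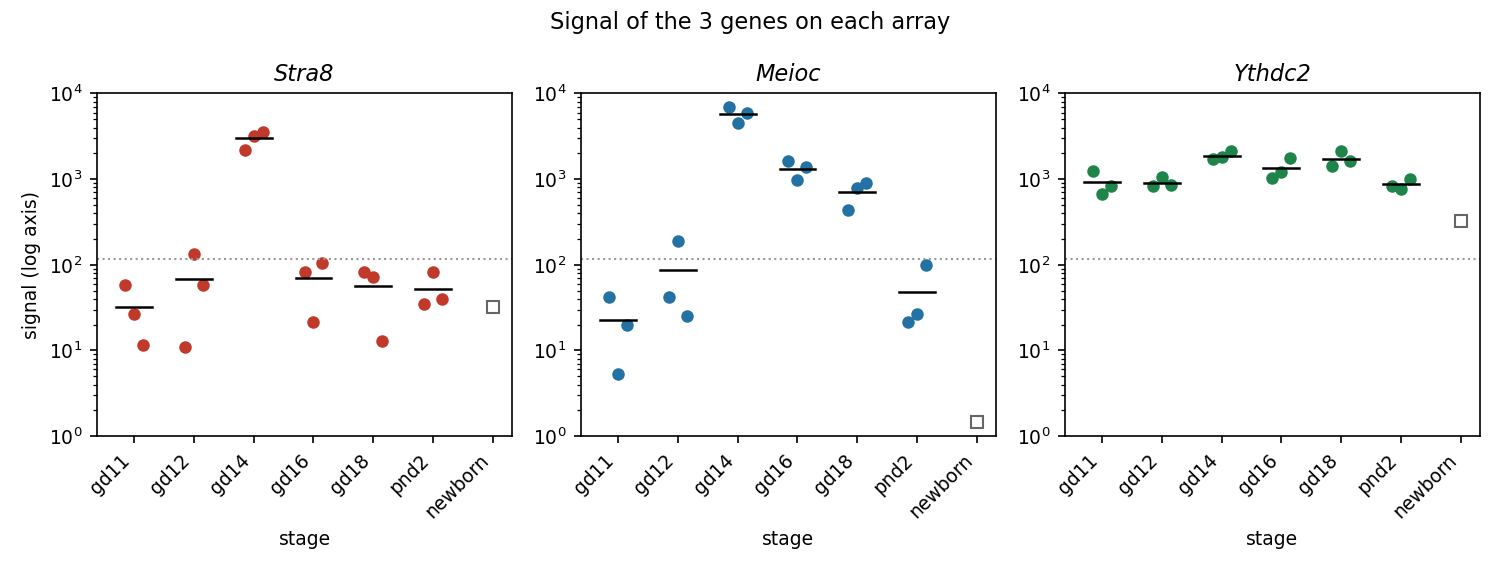
Signal of Stra8, Meioc and Ythdc2 (log axis) on each of 3 arrays per stage, with the stage mean as a bar, and the newborn array as an open square. The dotted line is the filter at 116.05. Stra8 stands above the line on all arrays of gd14 only, Meioc on those of gd14, gd16 and gd18, and Ythdc2 on every array.

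Between gd12 and gd11 none of the 3 genes passed the test, at a background of 3.3% of the 12592 tested genes called higher and 1.41% called lower. Changes are differences between stage means of log2(signal + 31), ± SE from the limma fit over all 18 arrays, with p-values adjusted over all tested probe sets. This scale understates changes of genes with low signal. Stra8 differed by 0.50 ± 0.47 (adjusted p = 0.62), Meioc by 0.91 ± 0.43 (adjusted p = 0.27) and Ythdc2 by 0.03 ± 0.22 (adjusted p = 0.97). The 95% intervals were -0.48 to 1.49 for Stra8, 0.01 to 1.82 for Meioc and -0.44 to 0.49 for Ythdc2. On gd12 samples 13 and 15, which had lower Ddx4 and Dazl signals than sample 14, Stra8 and Meioc stayed within or near their gd11 range.

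At gd14 against gd12 all 3 genes rose, at a background of 11.6% of tested genes called higher and 8.01% lower. Meioc rose most, by 5.89 ± 0.43 (adjusted p = 2.8e-08), and its gd14 mean was 50.1 times the filter of 116.05. Stra8 rose by 5.12 ± 0.47 (adjusted p = 4.4e-07), and its gd14 mean was 25.8 times the filter. Because it had passed that filter through gd14 alone, this rise uses the values that admitted it and is a description. The gd12 means of Stra8 and Meioc lay under the filter and moved with sample 14, so no ratio to gd12 is given for them. Ythdc2 rose by 1.02 ± 0.22 (adjusted p = 0.0037), to 2.06 times the gd12 mean. Ranked among the 12592 genes, the rise of Ythdc2 was number 644. Without gd12 sample 14, the changes were 6.49 for Meioc and 5.60 for Stra8. The arrays of the 2 stages did not overlap for any of the 3, as for 40.2% of tested genes. Germ cell markers moved with this step (9 of 12 tested rose, none fell, at the same background), and the 3 genes relative to such markers are given below.

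At gd16 against gd14 Stra8 and Meioc fell, at a background of 9.75% of tested genes called lower and 11.4% higher. For both the arrays of the 2 stages did not overlap, as for 37.5% of tested genes. Stra8 fell by 4.98 ± 0.47 on the log2 scale (adjusted p = 2.3e-06). Its gd16 signals all lay under the filter of 116.05, and it had passed that filter through gd14 alone, so its place among the falls of other genes is not given. Meioc fell by 2.11 ± 0.43 (adjusted p = 0.0025), the 27th largest fall of the 12592 genes. Ythdc2 differed by -0.50 ± 0.22 (adjusted p = 0.12, 95% interval -0.97 to -0.04), with overlapping arrays. Without gd16 sample 9, its highest gd16 array, Ythdc2 differed by -0.72 and passed the test (adjusted p = 0.038). Without gd16 sample 7, which stood apart in Xist, the changes were -5.13 for Stra8, -2.26 for Meioc (adjusted p = 0.006) and -0.35 for Ythdc2 (adjusted p = 0.36).

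At gd18 against gd16 none of the 3 passed, at a background of 4.95% called higher and 3.25% lower. Meioc differed by -0.91 ± 0.43 (adjusted p = 0.22), although its 3 gd18 arrays all lay below the 3 of gd16, as the arrays of 26.3% of tested genes did in 1 direction or the other. Stra8 differed by -0.22 ± 0.47 and Ythdc2 by 0.38 ± 0.22, with adjusted p = 0.83 for Stra8 and 0.33 for Ythdc2. At pnd2 against gd18, with a background of 6.84% called lower and 8.51% higher, Meioc fell by 3.28 ± 0.43 (adjusted p = 6.6e-05). Ythdc2 fell by 0.95 ± 0.22 (adjusted p = 0.0076), number 339 among the falls. In both genes the pnd2 arrays lay below those of gd18 without overlap, as the arrays of 34.3% of tested genes did in either direction. Stra8 differed by 0.01 ± 0.47 (adjusted p = 0.99).

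Over the whole course the 3 genes ended near where they began. At pnd2 against gd11, where 46.9% of tested genes were called (26.3% higher, 20.5% lower), Stra8 differed by 0.43 ± 0.47 (adjusted p = 0.49), Meioc by 0.51 ± 0.43 (adjusted p = 0.37) and Ythdc2 by -0.04 ± 0.22 (adjusted p = 0.91). Their 95% intervals were -0.55 to 1.42, -0.40 to 1.41 and -0.50 to 0.43, so for Ythdc2 a change of more than 0.50 on the log2 scale lay outside the interval. In the same comparison all 12 tested germ cell markers were called higher at pnd2. At pnd2 against gd14 all 3 members were lower, at a background of 15.1%: Meioc by -6.30 ± 0.43 (adjusted p = 5.7e-09), Stra8 by -5.19 ± 0.47 (adjusted p = 1.8e-07) and Ythdc2 by -1.08 ± 0.22 (adjusted p = 0.0011). An F test for any change over the 6 stages gave adjusted p = 8.2e-08 for Stra8, 1.1e-09 for Meioc and 0.00045 for Ythdc2, and called 68.1% of all tested genes. As Stra8 had passed the filter through gd14 alone, its calls against gd14 and in the F test use the values that admitted it.

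**Figure D2:**
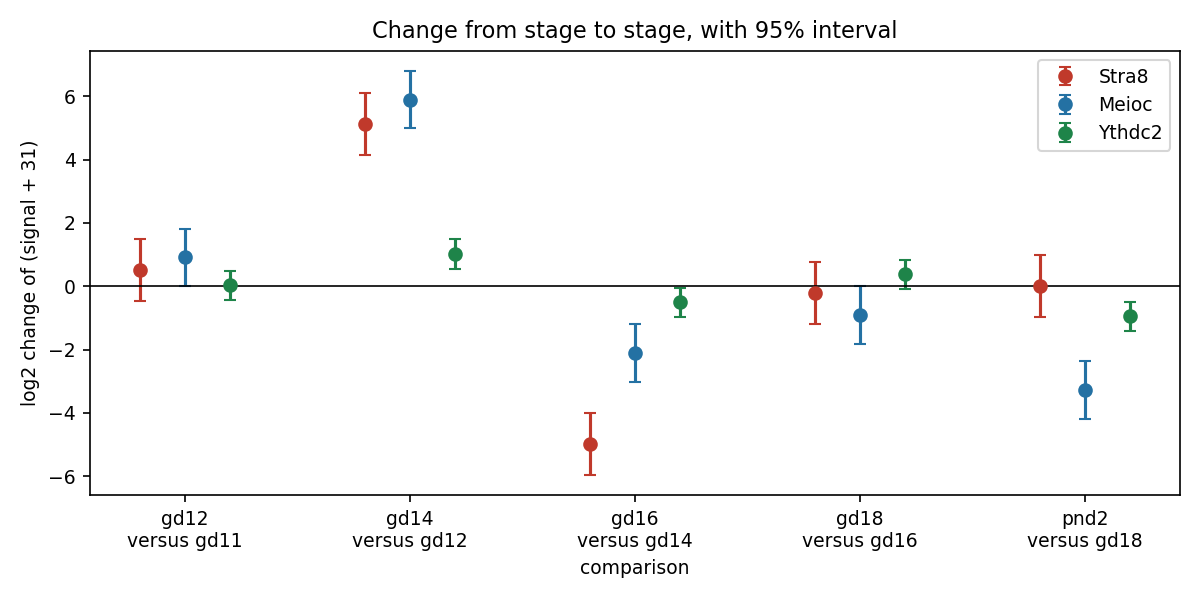
Change of log2(signal + 31) between neighbouring stages, later against earlier, for Stra8, Meioc and Ythdc2, with the 95% interval of the limma fit. All 3 rise at gd14; Stra8 has its fall at gd16 (-4.98), whereas that of Meioc is parted between gd16 (-2.11) and pnd2 (-3.28).

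The highest mean signal of all 3 genes was at gd14, but they differed in how far gd14 stood above the stage with the next highest mean. On the scale of log2(mean signal + 31) this gap was 4.90 for Stra8, 2.10 for Meioc and 0.11 for Ythdc2. Rec8, the meiotic cohesin subunit, had a gap of 2.54. The next stage was gd16 for Stra8, where its mean of 70.1 lay under the filter, gd16 for Meioc and gd18 for Ythdc2, whose gd14 mean was 1.08 times that of gd18. These gaps describe the means of 3 arrays and were not tested.

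The difference between 2 members on the same array was then compared between the 9 arrays of gd16, gd18 and pnd2 and the 3 of gd14, by exact two-sided permutation tests over arrays for 3 pairs of genes. Relative to Ythdc2, Stra8 was lower by a log2 difference of -4.55 and Meioc by -3.24 on the later arrays (exact permutation test, each p = 0.0091, the smallest this design allows; adjusted p = 0.0136). All 9 later arrays lay below the 3 of gd14 in both. These 9 come from 3 stages and are not replicates of 1 condition, and Stra8 had passed the filter through gd14 alone. Against gd14, Stra8 relative to Ythdc2 was at -4.48, -5.07 and -4.11 at gd16, gd18 and pnd2. Meioc relative to Ythdc2 was at -1.61, -2.89 and -5.22. Stage by stage, each had an exact permutation p of 0.1. Stra8 relative to Meioc differed by -1.32 (exact permutation p = 0.29, adjusted p = 0.29), and here the sign was not the same at all stages. Against gd14, Stra8 relative to Meioc was lower by -2.87 at gd16 and by -2.18 at gd18, but higher by 1.11 at pnd2. With 3 arrays against 3 the smallest exact permutation p is 0.1, which was reached at gd16 and gd18, and p was 0.3 at pnd2.

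To set the members beside germ cell genes on the same array, their log2 values were taken relative to the mean log2 value of Ddx4, Dazl and Mael. These 3 were chosen after the data were seen. Ddx4 encodes an RNA helicase of germ cells, Dazl an RNA-binding protein and Mael a protein of transposon silencing. This marker mean moved by 2.86 at gd12 against gd11 and by 2.82 at gd14 against gd12. It moved by -0.99 at gd16 against gd14, 0.55 at gd18 against gd16 and -0.73 at pnd2 against gd18. The 12 tested markers of the germ cell list, some of which are themselves stage-dependent, served as an alternative. Their mean moved by 1.79, 1.68, -0.62, 0.70 and 0.14 at the same steps. The 2 sets thus differed in size and, at pnd2, in direction. Neither is a measure of germ cell number alone, and a change of these markers per cell was not tested.

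Relative to Ddx4, Dazl and Mael, Stra8 and Meioc still rose at gd14 and fell after it. Stra8 rose by 2.30 ± 0.51 at gd14 against gd12 (adjusted p = 0.0045) and fell by 3.99 ± 0.51 at gd16 against gd14 (adjusted p = 6.0e-05). Both changes use the gd14 values through which alone Stra8 had passed the filter. Meioc rose by 3.07 ± 0.37 at gd14 (adjusted p = 1.3e-05) against gd12. It changed by -1.12 ± 0.37 at gd16 (adjusted p = 0.042), by -1.46 ± 0.37 at gd18 (adjusted p = 0.021) and by -2.55 ± 0.37 at pnd2 (adjusted p = 0.00018), each against the stage before. With the 12 markers, the changes had the same direction and also passed. At gd12 against gd11, Stra8 and Meioc were lower relative to the 3 markers, by -2.35 ± 0.51 (adjusted p = 0.013) and -1.94 ± 0.37 (adjusted p = 0.0056). With the 12 markers neither passed (adjusted p = 0.11 for Stra8 and 0.25 for Meioc). In plain signal both genes had means under the filter at these stages and differed by 0.50 and 0.91. The 3-marker mean rose by 2.86, so the lower relative values are no fall of the members' own signal. The fall of Meioc at gd18, which missed the threshold in plain signal, passed it relative to markers that were higher at gd18 than at gd16.

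Ythdc2 behaved otherwise. Relative to the same 3 markers it fell by 1.80 ± 0.31 at gd14 against gd12 (adjusted p = 0.00052) and by 2.83 ± 0.31 at gd12 against gd11 (adjusted p = 6.9e-05). Its plain signal did not fall at these steps. It differed by 0.03 at gd12 and rose by 1.02 at gd14, while the marker mean rose by 2.86 and 2.82. From gd14 on Ythdc2 relative to these markers did not pass at any step, with differences of 0.49 at gd16 (adjusted p = 0.29), -0.18 at gd18 (adjusted p = 0.79) and -0.22 at pnd2 (adjusted p = 0.70). With the 12 markers the difference at gd14 was -0.66 (adjusted p = 0.068), and a fall by 1.10 ± 0.24 at pnd2 passed (adjusted p = 0.0052). The call for Ythdc2 at pnd2 therefore depended on which markers were used. Ythdc2 had a signal above the filter on the gd11 arrays, where Ddx4, at 109 to 267, Dazl, at 97.6 to 445, and Mael, at 12.4 to 24.7, were low.

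**Figure D3:**
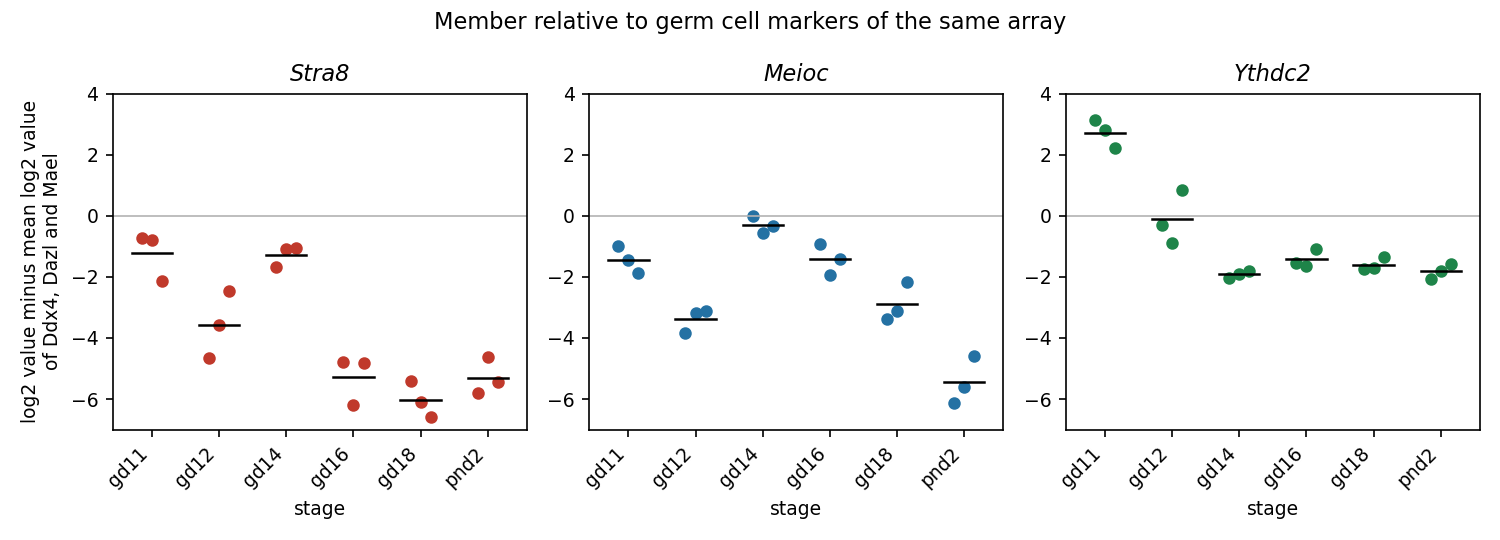
Log2(signal + 31) of each gene minus the mean of that value for Ddx4, Dazl and Mael, on each of 3 arrays per stage, with the stage mean as a bar. From gd12 to gd14 Stra8 and Meioc move up and Ythdc2 moves down. For Stra8 and Meioc all arrays after gd14 lie below those of gd14, whereas Ythdc2 relative to these 3 markers is called at no step after gd14.

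The other named partner of the RNA-binding complex, Rbm46, was high from gd14 to pnd2. Its signal was 96.6, 239 and 302 at gd11, 567, 898 and 616 at gd12, 1951, 1547 and 2237 at gd14, 1106, 1670.1 and 1078 at gd16, 1724, 2054 and 2260.3 at gd18, and 1201, 1418 and 2438 at pnd2. Rbm46 rose by 1.66 ± 0.31 at gd12 against gd11 (adjusted p = 0.0044) and by 1.43 ± 0.31 at gd14 against gd12 (adjusted p = 0.0032). No later step passed the test, and at pnd2 its arrays overlapped with those of gd14. Xrn1, an RNA exonuclease reported to bind YTHDC2, passed at none of the steps between neighbouring stages.

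Genes of meiotic prophase rose with the members at gd14 and fell in part at gd16. Of 28 genes of this list, 27 rose at gd14 against gd12 and none fell (11.6% and 8.01% of all tested genes), with a median log2 change of 3.87, against -0.02 for all tested genes. The largest rises were those of Terb1, 6.11, a telomere tether, Tex101, 5.87, a germ cell surface protein, Sycp1, 5.44, Tex12, 5.42, and Sycp3, 5.10, parts of the synaptonemal complex that pairs chromosomes. At gd16 against gd14 the list had 20 genes lower and 1 higher (9.75% and 11.4% of all tested genes), with a median of -1.29, against 0.09 for all tested genes; without gd16 sample 7 it had 15 lower and none higher. Rec8 fell most, by 2.54 ± 0.41 (adjusted p = 0.00035), with signals of 126, 288 and 201 on the gd16 arrays against 911, 1339 and 1763 on those of gd14. Ugt8a, -2.11, a glycolipid enzyme, Tex12, -2.05, and the chromosome axis proteins Hormad2, -1.89, and Hormad1, -1.82, came next.

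The fall of Meioc at gd16, -2.11, lay within the range of the 28 genes. That of Stra8, -4.98, is not ranked among them, because Stra8 had passed the filter through gd14 alone. Syce3, a central element of the synaptonemal complex that is named as the 1 gene of the list called higher, rose by 0.93 ± 0.30 (adjusted p = 0.036); it was among the calls lost without gd16 sample 7. At gd18 against gd16, 1 of the 28 was higher and 2 were lower (4.95% and 3.25% of all tested genes), and none passed without gd16 sample 7 (median -0.33 with it). At pnd2 against gd18, 13 were lower and none higher (6.84% and 8.51% of all tested genes), with a median of -0.70, against -0.03 for all tested genes. Tex101, -3.57, Sycp2, -2.28, Spo11, -2.24, the enzyme of meiotic breaks, Sycp1, -2.06, and Syce3, -1.96, fell most. The fall of Meioc at that step, -3.28, lay between those of Tex101 and Sycp2. At gd12 against gd11, 10 of the 28 already rose and none fell (3.3% and 1.41% of all tested genes; median 0.74, against 0.00), and 6 rose without gd11 sample 16.

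**Figure D4:**
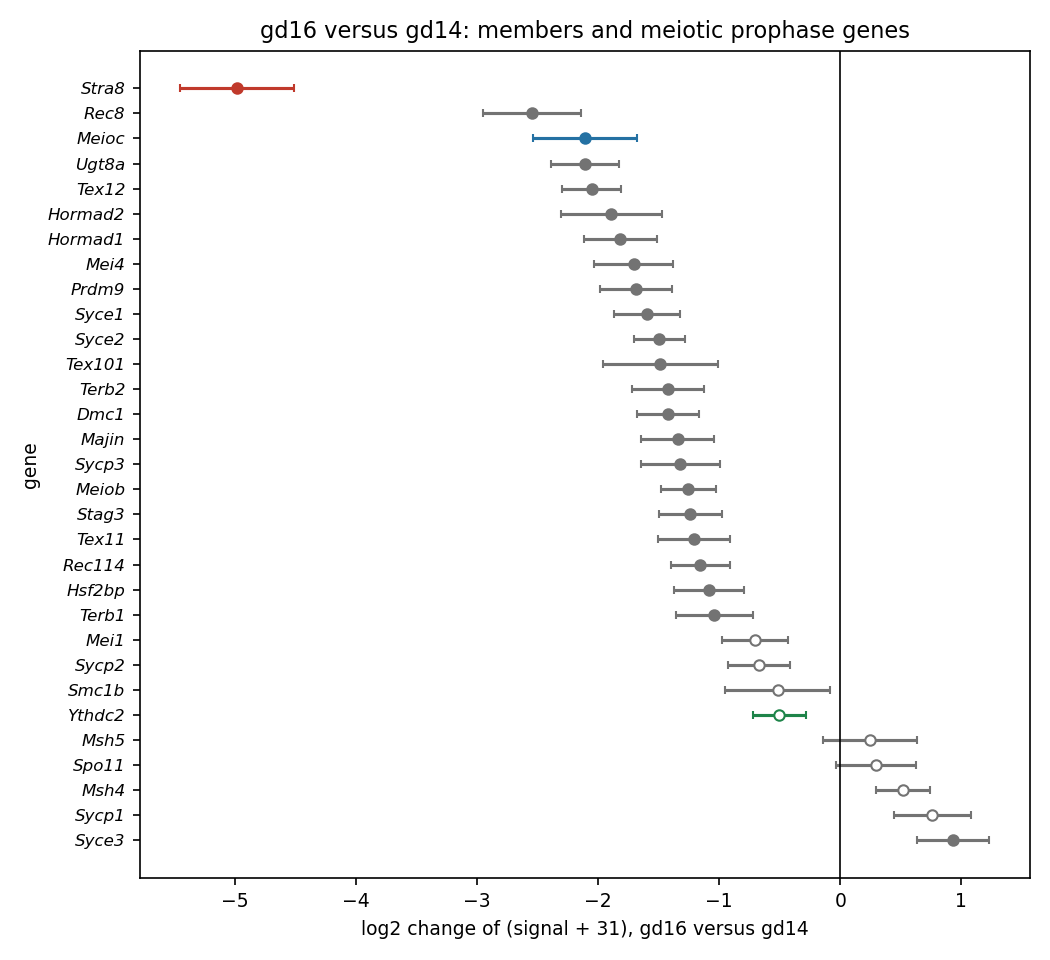
Log2 change ± SE at gd16 against gd14 for Stra8, Meioc, Ythdc2 and 28 genes of meiotic prophase, ordered by size, with filled points for those called at an adjusted p under 0.05. Stra8, at -4.98, passed the filter through gd14 alone, as Hormad2 and Mei4 did. Meioc lies next to Rec8 and Ugt8a, and Ythdc2, at -0.50, is not called.

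Of 13 tested genes that make, break down or sense retinoic acid, the inducer of Stra8 (16 on the array), 1 rose and 5 fell at gd14 against gd12 (11.6% and 8.01% of all tested genes), with a median of -0.55, against -0.02 for all tested genes. Aldh1a1, which makes retinoic acid, rose by 2.31 ± 0.22 (adjusted p = 5.2e-07), with signals of 6566, 5599 and 7012 at gd14 against 1036, 2094 and 914 at gd12. Its level did not fall again and was 11649, 11164 and 12891 at pnd2. Rarb, a receptor whose gene responds to retinoic acid, fell by 1.37 ± 0.32 (adjusted p = 0.0059), with 200, 163 and 166 at gd14 against 622, 254 and 783 at gd12. The binding proteins Crabp2 and Crabp1 changed by -1.23 and -1.05, and the degrading enzyme Cyp26b1 by -1.004 ± 0.209 (adjusted p = 0.0027).

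Of 9 tested markers of the mesonephros and the nephric duct, 5 fell and none rose at the same step (8.01% and 11.6% of all tested genes), with summed signals of 3010 to 3922 at gd14 against 6926 to 7822 at gd12 for 10 genes; their part in the result was not tested. At gd16 against gd14, when Stra8 fell, 1 of the 13 retinoic acid genes rose and none fell (11.4% and 9.75% of all tested genes): Rxrb, a partner receptor, rose by 1.16 ± 0.21. Without gd16 sample 7, 1 rose and 1 fell.

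Among 16 genes that prepare germ cells for meiosis or activate Stra8, 7 rose and 1 fell at gd12 against gd11 (3.3% and 1.41% of all tested genes), the step before that at which Stra8 rose. They included Dazl, 3.31, Ddx4, 2.72, Bmp2, 1.82, a signal of the ovary, Dmrt1, 1.42, an activator of Stra8 in the fetal ovary, and Zglp1, 1.25, a target of BMP signals. Without gd11 sample 16, 4 rose and 1 fell. At gd14 against gd12, 2 of the 16 rose (Ddx4, 2.56, and Dazl, 1.93) and 4 fell, among them Bmp5, -1.43, and Bmp4, -0.86 (of all tested genes, 11.6% rose and 8.01% fell). At gd16 against gd14, 2 rose and 5 fell (11.4% and 9.75% of all tested genes), or 1 and 3 without gd16 sample 7.

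Like Stra8, Dmrt1 was lower at gd16 than at gd14, with a change of -2.05 ± 0.34 (adjusted p = 0.00053). Its signal was 111, 68.5 and 153 on the gd16 arrays, against 306, 647 and 779 on those of gd14 and 407, 875 and 444 at gd12. Unlike those of Stra8, the gd14 arrays of Dmrt1 overlapped with the gd12 arrays. Bmp2 fell by 1.42 ± 0.38 (adjusted p = 0.014), with signals of 712, 1646 and 852 at gd16 against 3031, 2577 and 2634 at gd14.

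Of 14 tested genes that hold meiotic genes silent, among them MGA and its Polycomb partners, 1 rose and 1 fell at gd14 against gd12, near the shares of all tested genes (11.6% and 8.01%). Mga, a DNA-binding repressor, rose by 0.62 ± 0.12 (adjusted p = 0.0020) and E2f6 fell by 0.51 ± 0.15 (adjusted p = 0.026). Mga had 2437, 2221 and 2429 at gd14 against 1618, 1536 and 1427 at gd12. These are RNA signals of whole ovary, and a link between Mga and Stra8 was not tested. At gd16 against gd14, 1 of the 14 rose and 5 fell (11.4% and 9.75% of all tested genes), with Cbx1, -0.90, Mga, -0.63, Ezh2, -0.62, and Rnf2, -0.62, lower and Ring1, 0.86, higher. At pnd2 against gd18 2 of the 14 rose and none fell (8.51% and 6.84% of all tested genes): the DNA methylation genes Uhrf1, 1.17, and Dnmt1, 1.15.

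Of 12 other m6A genes, writers, readers and erasers, 1 rose at gd14 against gd12 and none fell, near the shares of all tested genes (11.6% and 8.01%). It was Alkbh5, an eraser, which rose by 0.65 ± 0.14 (adjusted p = 0.0030). At gd16 against gd14 none rose and 3 fell (11.4% and 9.75% of all tested genes): Ythdf3, a reader, by -0.97, and the writer components Mettl14, by -0.63, and Wtap, by -0.31; 2 fell without gd16 sample 7. At pnd2 against gd18, when Ythdc2 fell, none of the 12 passed.

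Of 24 mitotic genes, 11 fell, 1 rose and 12 did not pass the test at gd14 against gd12 (of all tested genes, 8.01% fell and 11.6% rose), with a median of -0.42, against -0.02 for all tested genes. The kinases Aurka, -1.06, and Aurkb, -0.97, the ubiquitin enzyme Ube2c, -1.01, and the phosphatase Cdc25c, -0.87, fell most. Bub1, a checkpoint kinase, was the 1 that rose, by 1.13 ± 0.17 (adjusted p = 0.00015), with 8035, 6097 and 7001 at gd14 against 3425, 3040.2 and 3076 at gd12, and it fell by 1.56 ± 0.17 at gd16 (adjusted p = 1.3e-05). Its course therefore had the gd14 peak of Stra8 and Meioc.

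Ccna2, the cyclin A2 gene, named here as a known target of the complex after its values were seen, fell by 0.69 ± 0.18 at gd14 (adjusted p = 0.014). Its signal was 986, 1346 and 1217 at gd14 against 2216, 1592 and 1983 at gd12. At gd16 it differed by 0.30 ± 0.18 (adjusted p = 0.26), and at pnd2 against gd18 it rose by 0.64 ± 0.18 (adjusted p = 0.026), with 1735, 1662 and 1628 at pnd2 against 1122, 1012 and 1061 at gd18. At that step, when Meioc and Ythdc2 fell, 9 of the 24 mitotic genes rose and none fell (8.51% and 6.84% of all tested genes), led by Ube2c, 2.43. In whole ovary the dividing cells include somatic cells, and their part in these changes was not tested.

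The genes whose course over the 18 ovary arrays was most like that of each member were taken from 12107 tested genes by Pearson correlation of log2 values. The points share arrays and stages, so the values are descriptions with no test. For Stra8 they were Tppp (r = 0.95), Abhd18, Hprt, Cep85, Trpc1, Eaf2, Syn2 and Iqcb1 (r = 0.93). Tppp, Abhd18 and Eaf2 had, as Stra8 had, passed the filter on low signals through gd14 alone. Their likeness to Stra8 therefore uses the values that admitted them. Tppp had a mean signal of 249.8 at gd14 and of 5.76 to 22.7 at the other stages, and Hprt, an enzyme of purine salvage, had 7295 at gd14 and 2134 to 3408 at the others. Among the 28 meiotic genes Rec8 came nearest to Stra8, with r = 0.90. By rank correlation 2 of the 8 genes remained among the 8 most like.

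For Meioc the 8 genes were Tex101 (r = 0.97), Dmc1, the recombinase of meiotic breaks (r = 0.97), Stk17b, Adad1, Stag3, a meiotic cohesin, Rhox13, Ankrd34b and Mei1, which is needed for meiotic breaks (r = 0.95); 4 remained by rank correlation. Among the 8, Ankrd34b had passed the filter through gd14 alone, so its likeness uses the values that admitted it. Dmc1 shared the stair of Meioc, with means of 1561 at gd14, 561 at gd16, 289 at gd18 and 99.8 at pnd2. For Ythdc2 they were Copg2 (r = 0.91), Taf7l (r = 0.89), Fnip1, Ddx25, Tex16, Relch, Kdm4c and Vmp1 (r = 0.86), of which 3 remained. Taf7l, a germ cell relative of a general transcription factor, had means of 6707 at gd14, 3110.0 at gd16, 5422 at gd18 and 217 at pnd2, lower at gd16 than at gd14 and gd18. Between the members r was 0.74 for Stra8 and Meioc, 0.85 for Meioc and Ythdc2 and 0.61 for Stra8 and Ythdc2.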

How the data were processed

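Whole-ovary RNA of 18 samples and 1 whole-newborn pool went through 2 rounds of amplification and onto biotin-based Affymetrix Mouse430_2 arrays, per the labels' protocols. The deposited values are linear intensities, made by the authors with GCOS according to the submitters' processing notes (version and settings: not given in the sources used here). No array carries a count, so the number of arrays limits the precision. Where nothing states separate animals, p-values measure the spread between samples.

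Values were transformed to log2(signal + 31), 31 being the 25th percentile of all ovary values, and 26431 probe sets passed the filter. Of 45101 probe sets, 34958 had 1 gene symbol, 932 several and 9211 none, and 64 controls were left out. A gene with several probe sets was represented by that with the highest mean. Tests between stages used limma 3.58.1 under R 4.3.3 (1 term per stage, mean-variance trend, Benjamini-Hochberg adjustment, calls at 0.05). Exact permutation tests used scipy 1.17.1. The fit was tested on simulated arrays. The members and gene lists were chosen with earlier results of these data known. The rule for named genes took the members, the 8 genes most like each, and up to 5 called genes of a list with the largest change; exceptions are marked. Alternatives changed the pseudocount (lower, or near the median signal), scaling, filter, fit, weights and arrays. List counts without gd16 sample 7 or gd11 sample 16 were added after the data were seen. Genes without a single-gene probe set, such as Meiosin, are not analysed here.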

Additional observations from a re-analysis of the deposited data

How the results depend on the processing

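The calls for Stra8, Meioc and Ythdc2 between stages held their direction and side of the threshold under every alternative run, except as follows. Ythdc2 at gd16 against gd14 ran from -0.72 to -0.35 over the fits that left out 1 array, and passed only without gd16 sample 9. Some differences that were near 0 and not called changed sign. Stra8 at pnd2 against gd18 was -0.0185 with a pseudocount near the median signal and -0.19 with array weights, and ran from -0.43 to 0.26 over the fits with 1 array left out. Stra8 at gd18 against gd16 ran from -0.63 to 0.22 over those fits. Ythdc2 at gd12 against gd11 was -0.0703 with median scaling and -0.0948 with gd11 samples 18 and 19 averaged, and ran from -0.17 to 0.27. Ythdc2 at pnd2 against gd11 was 0.0524 with array weights and ran from -0.23 to 0.20. Without any 1 of the gd14 arrays the exact permutation tests of Stra8 and Meioc relative to Ythdc2 no longer passed (adjusted p = 0.0545). With so few gd14 arrays they could not have passed while Stra8 relative to Meioc did not. The lost calls therefore say nothing of single arrays. Over all single arrays left out, Stra8 relative to Ythdc2 ran from -4.69 to -4.39 and Meioc relative to Ythdc2 from -3.52 to -2.94.

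Counts of called probe sets depended more on the setting. The fit to the compared stages alone called 438 at gd12 against gd11 and 898 at gd18 against gd16, where the fit to all stages called 1089 and 2003. With gd11 samples 18 and 19 averaged, 687 were called at gd12 against gd11, and with the filter at 507.26, 7355 in place of 11089 at pnd2 against gd11, with fewer probe sets tested. With 1 array left out the counts ran from 339 to 1174 at gd12 against gd11, 2605 to 4537 at gd14 against gd12 (4355 with all), 2932 to 5197 at gd16 against gd14 (4965 with all), 1138 to 2129 at gd18 against gd16, 1836 to 3622 at pnd2 against gd18 (3432 with all) and 2216 to 3549 at gd18 against gd14 (3383 with all). The cause was not tested. No paired analysis was possible because the stages share no replicate number. Signal limits what can be said of Stra8 outside gd14 and of Meioc at gd11, gd12 and pnd2, where their mean signals lay under the filter at 116.05.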

Other observations

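Markers of cells other than germ cells changed over the stages in which the 3 genes were followed. The summed signal of 9 genes of red blood cells was 50662 to 59066 on the gd11 arrays and 43654 to 50202 on those of gd12. The gd14 arrays had 33729 to 37941, the gd16 arrays 6852 to 10869, the gd18 arrays 1117 to 4272 and the pnd2 arrays 238 to 407. The sum of each later stage thus lay lower without overlap. Its largest single signals were those of the globin genes Hbb-y and Hbb-bh1, up to 36689 and 17515. At gd16 against gd14, 4 of the 8 tested genes of the list rose and 2 fell (11.4% and 9.75% of all tested genes), with a median of 1.24. Without gd16 sample 7, 2 rose and 3 fell. At pnd2 against gd11, 7 of the 8 tested genes of this list were lower and none was higher, at a background of 20.5% of tested genes called lower. The 11 markers of granulosa and supporting cells had sums of 10325 to 12439 on the gd11 arrays, 17653 to 36901 on the gd12 arrays and 28033 to 31392 on those of gd14. The sums were 34002 to 38178 on the gd16 arrays, 25777 to 32009 on those of gd18 and 22522 to 30726 on those of pnd2. Of these 11 genes, 7 rose at gd12 against gd11 (6 without gd11 sample 16), at a background of 3.3% called higher. Of 8 tested macrophage markers, 2 rose at gd16 against gd14 (1 without gd16 sample 7), where 11.4% of all tested genes rose, and none passed at the other steps between neighbouring stages. Of 7 tested markers of testis supporting and Leydig cells, 3 rose at pnd2 against gd18 and none fell (8.51% and 6.84% of all tested genes). Amh, the hormone of fetal testis supporting cells, had a signal of at most 28.8 on any of the 19 arrays. All 9 tested neuron markers were lower at pnd2 than at gd11 (7 without gd11 sample 16, which stood apart in these markers), at the background of 20.5%.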
